A study of Danio rerio with 5 samples.

Results

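The transcripts of 4 CCAAT/enhancer binding proteins (C/EBP), cebpa, cebpb, cebpd and cebpg, were described in whole zebrafish larvae with and without a deletion in zbtb24. Members were the rows whose gene symbol equals one of these names. All 4 were present, as 1 row each, among 21854 genes of the table. The genes were chosen by symbol, but as a family selected on the scaled counts of the libraries labelled Mutant and WT, which were already known. That contrast is therefore described for the 4 genes, with no p-value.

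The study modelled ICF syndrome (immunodeficiency with centromere instability and facial anomalies), in which pericentromeric repeats lose DNA methylation and which can be caused by mutation of the zinc finger gene ZBTB24. Polyadenylated RNA was sequenced from 5 libraries, each of a pool of 10 larvae at 2 weeks post fertilization. The 3 libraries labelled Mutant came from larvae homozygous for the zbtb24 mk22 allele, a deletion made with TAL effector nucleases that removes part of the coding sequence. The 2 libraries labelled WT came from wild-type larvae, the wild-type lines being AB. The series description names 3 pools per genotype, but the deposited values hold only 2 libraries labelled WT, and both were analysed here. Sex of the larvae is not given in the sources used here, and a pool averages over the tissues of its animals. Libraries labelled WT are called by their column numbers, 2 and 3, because these could not be tied to single samples.

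C/EBP proteins are transcription factors of the basic leucine zipper (bZIP) class. They pair through the zipper, with each other or with other bZIP proteins, and bind CCAAT-related elements through the basic region. In mammals C/EBPα is known for its part in the differentiation of hepatocytes, adipocytes and granulocytes, C/EBPβ and C/EBPδ for responses to cytokines, glucocorticoids and acute inflammation, and C/EBPγ, which lacks a classical activation domain, for pairing with other bZIP proteins such as ATF4 in the response to amino acid shortage and oxidative stress.

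Reads assigned to genes numbered 23796792 to 28601962 per library. The deposited values are read counts scaled for library size by the authors with 1 added, and after subtracting 1 they are called scaled counts. A fold change is the difference of means on the log2(scaled count + 1) scale. The targeted gene was not lower in the libraries labelled Mutant. Transcripts of zbtb24 had 155, 175 and 282 scaled counts in the libraries labelled Mutant, against 127 and 77.3 in those labelled WT (log2 fold change 0.98, SE 0.28, limma adjusted p = 0.0642). The homologues of CDCA7, a target of ZBTB24 in mammals, gave values on both sides. The libraries labelled Mutant held 255, 199 and 40.4 scaled counts of cdca7a, against 300 and 563 in those labelled WT (log2 fold change -1.68, SE 0.63, adjusted p = 0.127), and cdca7b was at 0.45 (SE 0.14, adjusted p = 0.0885). The interferon regulator gene irf7 was higher in the libraries labelled Mutant, by 0.84 on the log2 scale (SE 0.15, adjusted p = 0.0215). By quantitative PCR the paper found no detectable zbtb24 transcripts in homozygous larvae of the same age. It also reported a near complete loss of cdca7 expression in mutants, shown for older larvae. The zbtb24 values here show no such absence, and cdca7a stood at 255 and 199 scaled counts in replicates 1 and 2 labelled Mutant. A gene total cannot tell deleted from intact transcripts, and the reason for these differences was not tested. Directions below are therefore for libraries as labelled. The sample labels give fin as the source and the series description whole larvae. Markers of 11 tissues were listed above 0 in the libraries, among them the rod opsin gene rho (13647 to 20001 scaled counts labelled Mutant, 20968 to 23339 labelled WT) and the liver gene fabp10a (18654 to 21542 labelled Mutant, 12218 to 16698 labelled WT). Both are genes of organs other than the fin.

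Transcripts of cebpb and cebpd were lower in every library labelled Mutant than in either labelled WT, at 0.650-fold and 0.619-fold by the difference of log2 means. Those of cebpa lay lower by a smaller amount, and those of cebpg overlapped between the groups. Read counts of the 4 genes lay between 879 and 6239 per library, so that the counting error of a single value was at most 3.37%, below the spread between libraries of a group.

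The gene cebpb encodes C/EBPβ, first described in mammals as a nuclear factor of interleukin 6 signalling. It had 1527, 1289 and 1302 scaled counts in the libraries labelled Mutant (replicates 1, 2 and 3), against 2204 and 2016 in those labelled WT (columns 2 and 3). All libraries labelled Mutant lay below both labelled WT, and the lowest value labelled WT was 1.32 times the highest labelled Mutant. Means were 1373 ± 134 (SD, n = 3) in libraries labelled Mutant and 2110 ± 133 (SD, n = 2) in those labelled WT, a log2 fold change of -0.62 (SE 0.11) or 0.650-fold.

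The gene cebpd encodes C/EBPδ, which is induced early in inflammation and early in adipocyte differentiation in mammals. It had 3590, 2715 and 3047 scaled counts in the libraries labelled Mutant, against 5371 and 4667 in those labelled WT. The groups were again apart, with the lowest value labelled WT at 1.30 times the highest labelled Mutant. Means were 3117 ± 441 (SD, n = 3) in libraries labelled Mutant and 5019 ± 498 (SD, n = 2) in those labelled WT, a log2 fold change of -0.69 (SE 0.13) or 0.619-fold.

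The gene cebpa encodes C/EBPα, a factor of liver, fat and granulocyte differentiation. It had 1141, 1015 and 888 scaled counts in the libraries labelled Mutant, against 1222 and 1305 in those labelled WT. Replicate 1 labelled Mutant came close to column 2 labelled WT, and the lowest value labelled WT was 1.07 times the highest labelled Mutant. Means were 1015 ± 126 (SD, n = 3) in libraries labelled Mutant and 1263 ± 59.1 (SD, n = 2) in those labelled WT, with a log2 fold change of -0.32 (SE 0.12).

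The gene cebpg encodes C/EBPγ, the partner without a classical activation domain. It had 2088, 2242 and 1825 scaled counts in the libraries labelled Mutant, against 2051 and 1640 in those labelled WT. These values overlapped, since replicate 3 labelled Mutant lay below column 2 labelled WT. Means were 2052 ± 211 (SD, n = 3) in libraries labelled Mutant and 1845 ± 291 (SD, n = 2) in those labelled WT. The log2 fold change of 0.16 (SE 0.13) rested on column 3 of the WT group, without which it was -0.0044.

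**Figure D1:**
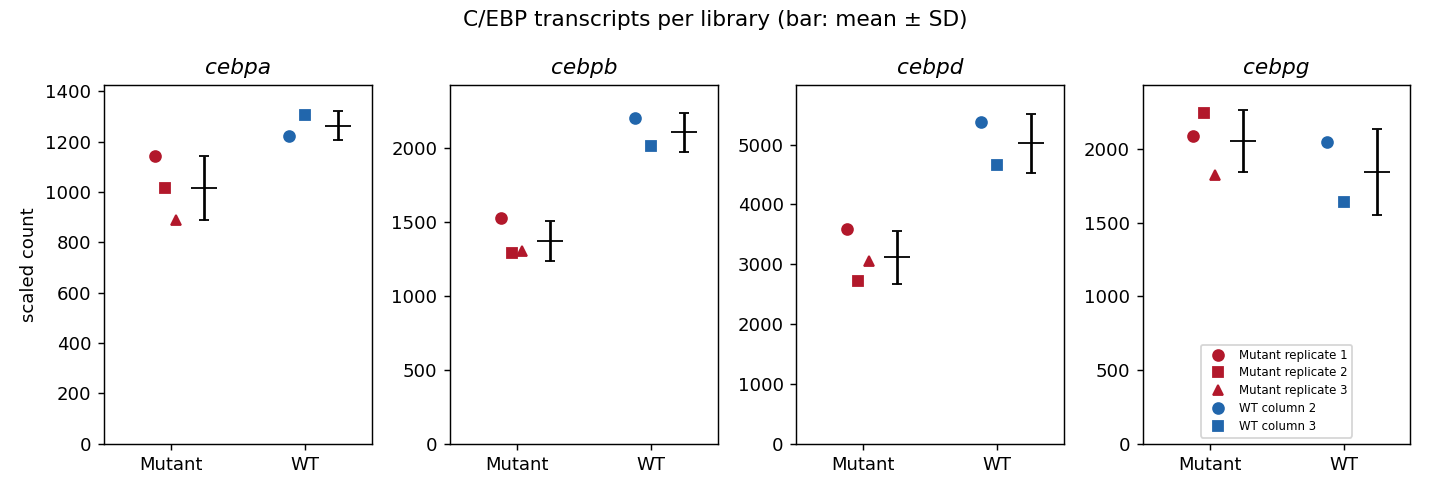
Scaled counts (y axes, from 0) of cebpa, cebpb, cebpd and cebpg in the 3 libraries labelled Mutant (red) and the 2 labelled WT (blue), with 1 symbol per library and a black bar for the mean ± SD. For cebpb the libraries labelled Mutant lie between 1289 and 1527 and those labelled WT between 2016 and 2204, and for cebpg the groups overlap.

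By the rule of an adjusted p under 0.05 in limma over all 20307 genes tested, 2 of the 4 genes (cebpb and cebpd) were lower and 0 were higher, where 2.68% of all genes tested were called lower. Values of 3 of the 4 did not overlap with the Mutant group below, which held for 22.7% of all genes tested, and values of 0 of the 4 did not overlap with the Mutant group above, against 22.3% of all genes. The genes were picked with this contrast known, so nothing is read from these counts. A larger absolute fold change was measured in 6.64% of all genes for cebpd, 9.09% for cebpb, 32.3% for cebpa and 61.5% for cebpg. Over all genes the median was -0.0014 on the log2 scale.

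**Figure D2:**
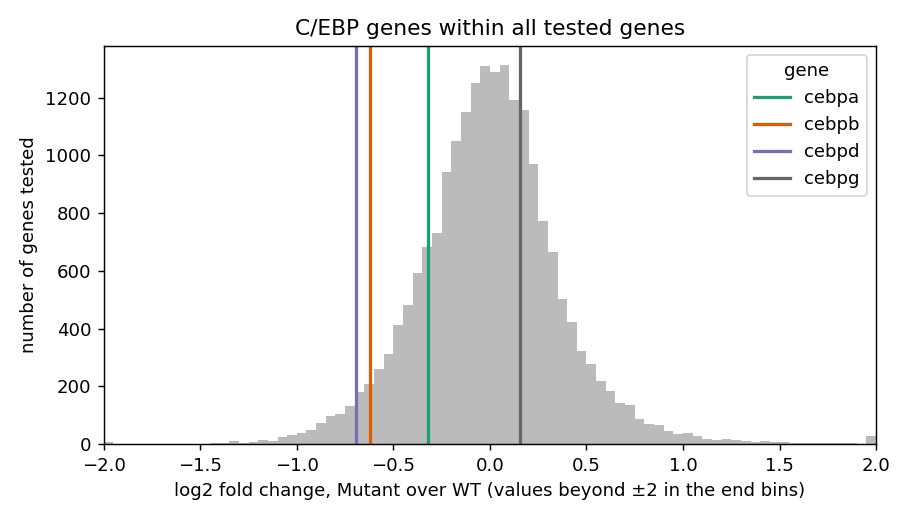
Histogram of the log2 fold change, Mutant over WT (x axis), of the 20307 genes tested (y axis, number of genes per bin), with a vertical line for each C/EBP gene. The lines of cebpd at -0.69 and cebpb at -0.62 stand in the lower tail, cebpa at -0.32 on its shoulder and cebpg at 0.16 near the centre.

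The values of cebpb and cebpd ran close together over single libraries. The ratio of cebpb to cebpd scaled counts was 0.425, 0.475 and 0.427 in the libraries labelled Mutant, against 0.410 and 0.432 in those labelled WT. The groups overlapped, and replicate 2 labelled Mutant stood apart from replicates 1 and 3. After each gene was centred on its mean over the 5 libraries, their log2 profiles differed by a root mean square of 0.070. Among 17298 genes that averaged at least 50 scaled counts, 43 were closer to cebpb than cebpd was, and 36 were closer to cebpd than cebpb was. The profile of cebpa differed from cebpb by 0.18 and from cebpd by 0.23. That of cebpg differed by 0.28 from cebpa, 0.41 from cebpb and 0.45 from cebpd. With 5 libraries that share 1 contrast, such likeness is a description of these samples.

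Among the libraries labelled Mutant, replicate 1 held the highest value of cebpa, cebpb and cebpd. It also held the highest values of the inflammatory cytokine gene il1b (91.0 scaled counts, against 24.8 and 24.2 in replicates 2 and 3) and of the acute phase gene saa (140.5, against 19.4 and 24.2). The libraries labelled WT held 12.9 and 14.8 scaled counts of il1b and 16.4 and 19.1 of saa. Their cebpa, cebpb and cebpd lay above those of every library labelled Mutant. Of the listed interleukin 6 pathway genes, il6r was also highest in replicate 1, while il6st, jak1, stat3 and socs3b were highest in replicate 3. For socs3b the values were 802, 575 and 848 in replicates 1, 2 and 3. The part of such differences between replicates in the C/EBP values was not tested. Without replicate 1 the log2 fold changes of cebpa, cebpb and cebpd were -0.41, -0.70 and -0.80.

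**Figure D3:**
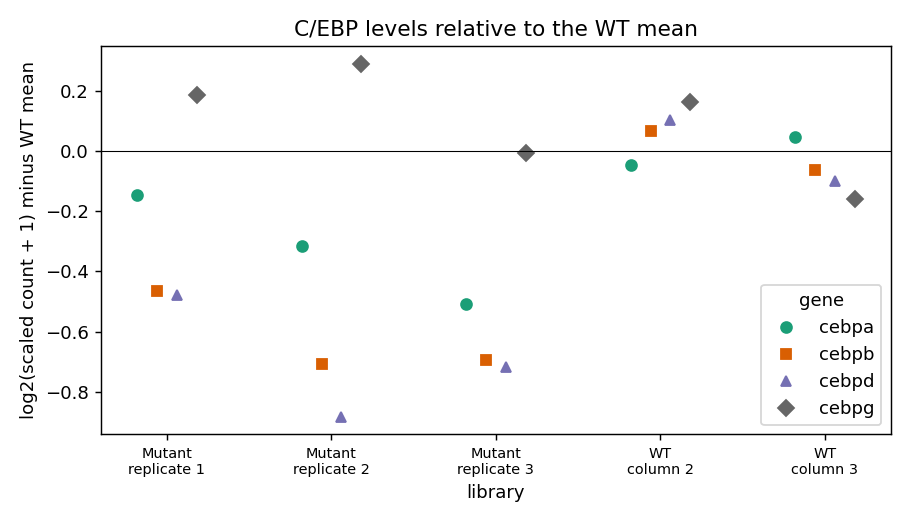
Level of each C/EBP gene per library (x axis), as log2(scaled count + 1) minus the mean of the libraries labelled WT (y axis), with 1 symbol per gene. In the libraries labelled Mutant, points lie from -0.46 to -0.71 for cebpb and from -0.48 to -0.88 for cebpd. The points of these genes lie furthest apart in replicate 2 labelled Mutant (-0.71 and -0.88).

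The parts of the members in their sum restate these values, since a lower level of cebpb and cebpd raises the part of cebpg without a change of its own. Scaled counts of the 4 genes summed to 8345, 7262 and 7062 in the libraries labelled Mutant, against 10847 and 9628 in those labelled WT. The part contributed by cebpg was 25.0%, 30.9% and 25.8% in the libraries labelled Mutant, against 18.9% and 17.0% in those labelled WT. All 3 libraries labelled Mutant were above both labelled WT. The part of cebpd was 43.0%, 37.4% and 43.1% in the libraries labelled Mutant, against 49.5% and 48.5% in those labelled WT. The part of cebpb was 18.2% ± 0.360 (SD, n = 3) in libraries labelled Mutant and 20.6% ± 0.436 (SD, n = 2) in those labelled WT. That of cebpa was 13.4% ± 0.738 labelled Mutant and 12.4% ± 1.62 labelled WT, and the sign of its difference turned to -0.15 percentage points without column 2 of the WT group. These parts depend on gene length and compare libraries, not genes. The ratio of cebpg to cebpb was 1.37, 1.74 and 1.40 in the libraries labelled Mutant, against 0.930 and 0.814 in those labelled WT, a difference of 0.78 on the log2 scale.

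Genes whose centred profile was closest to each member were named by rule, as a description over 5 libraries. The 3 closest to cebpd were vangl1, a planar cell polarity gene (root mean square difference 0.021 on the log2 scale), the synaptotagmin gene syt3 (0.033) and the plakoglobin gene jupb (0.035). Those closest to cebpb were dmbx1a, a homeobox gene of the brain (0.030), prdm8b, a gene of the PRDM family (0.035), and the lens crystallin gene crygn2 (0.037). The fatty acid synthase gene fasn stood second for cebpa (0.030), between PYURF (0.025) and zcchc2 (0.033). For cebpg they were the diacylglycerol kinase gene dgke (0.030), lmbr1l (0.034) and toporsa (0.037). Within 0.1 of the profile there were 133 genes for cebpd, 166 for cebpb, 199 for cebpa and 335 for cebpg.

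The chromosomal surroundings of the members were examined next. In the RefSeq annotation of assembly GRCz12tu, a later build than the one used for counting, cebpa and cebpg are neighbours on chromosome 7, cebpb lies on chromosome 8 and cebpd on chromosome 24. The 3 nearest genes with a row on each side gave 18 distinct neighbours. None of these 18 was called higher or lower in limma (0 of 18, with 2 at an unadjusted p under 0.05). Over all genes tested 3.32% were called higher and 2.68% lower, and 26.7% had an unadjusted p under 0.05. The other test run, voom, called 0 of the 18 as well. Their log2 fold changes ran from -0.46 (scrt2, a Scratch family repressor near cebpb, SE 0.15, adjusted p = 0.095) to 0.41 (CCDC178). The tyrosine phosphatase gene ptpn1 beside cebpb had 1279, 1430 and 1401 scaled counts in the libraries labelled Mutant, against 1387 and 1322 in those labelled WT. The replication licensing gene mcm4 beside cebpd had 1401, 1165 and 1416 labelled Mutant, against 824 and 1460 labelled WT. Both genes overlapped between the groups. Without column 3 of the WT group mcm4 alone was called higher (log2 fold change 0.68, adjusted p = 0.0207).

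Other C/EBP genes and bZIP partners followed. Of 14 listed genes 13 were found and 12 tested, and 0 were higher and 0 lower in limma (1 at an unadjusted p under 0.05) and 0 with voom, against 3.32% of all genes called higher, 2.68% lower and 26.7% at an unadjusted p under 0.05. The median log2 fold change was -0.035. CHOP, encoded by ddit3, is a C/EBP family member that dimerizes with the others and hinders their binding to usual sites. It had 1524, 1170 and 1156 scaled counts in the libraries labelled Mutant, against 1662 and 1402 in those labelled WT, which overlapped (log2 fold change -0.26, SE 0.14, adjusted p = 0.259). The granulocyte factor gene cebp1, listed in the table as si:ch211-198c1.7, had 45.5, 29.1 and 18.2 labelled Mutant, against 27.5 and 27.5 labelled WT.

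The ATF4 genes atf4a and atf4b, whose product in mammals pairs with C/EBPγ, had log2 fold changes of -0.0083 (SE 0.11) and 0.037 (SE 0.094). Those of atf5a, atf5b, atf3 and atf2 were -0.25, 0.00051, -0.00091 and -0.43. The pseudokinase genes trib1, trib2 and trib3, the first 2 of which direct C/EBPα to degradation in mammals, were at -0.062, -0.31 and -0.29, and the AP-1 related batf3 was at 0.76 from few reads (SE 0.36, adjusted p = 0.21). Of these, the signs of cebp1, atf4a, atf4b, atf5b and atf3 turned under at least 1 other scaling or with a library left out. The gene batf was below the minimum level and was not tested.

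Signals known to induce cebpb and cebpd in mammals were listed together with genes that respond to them. Of 22 listed genes 18 were found and 16 tested. The genes il6, tnfa, socs3a and csf3b had no matching row, and il11b and csf3a were below the minimum level. In limma 0 of 16 were called, and 6 had an unadjusted p under 0.05. Over all genes 3.32% were called higher and 2.68% lower, and 26.7% had an unadjusted p under 0.05. The largest negative values were those of klf9, a glucocorticoid and thyroid hormone responsive factor, and lifra, a receptor for leukaemia inhibitory factor. The gene klf9 had 4213, 3528 and 4226 scaled counts in the libraries labelled Mutant, against 6956 and 4692 in those labelled WT (log2 fold change -0.52, SE 0.16, adjusted p = 0.0753). The gene lifra had 513, 409 and 516 labelled Mutant, against 746 and 599 labelled WT (log2 fold change -0.49, SE 0.15, adjusted p = 0.0742). All libraries labelled Mutant were below both labelled WT for each. With columns rescaled to equal totals and with voom both were called, so 2 of 16 were lower there. In these fits 1103 and 1246 of all genes were called lower, against 544 in the main fit.

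Further glucocorticoid genes gave mixed values. The log2 fold change was -0.26 (SE 0.096) for tsc22d3, -0.22 (SE 0.11) for the receptor gene nr3c1, and 0.086 (SE 0.091) for fkbp5. In the interleukin 6 pathway it was 0.42 (SE 0.16) for the receptor gene il6r, 0.12 (SE 0.12) for the shared receptor gene il6st, 0.17 (SE 0.11) for stat3, which encodes the transcription factor of the pathway, and 0.26 (SE 0.16) for its feedback inhibitor socs3b. For il1b it was 1.40 (SE 0.51, adjusted p = 0.121).

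Liver and acute phase genes had mostly positive fold changes, Mutant over WT. They were listed as C/EBP targets from textbook knowledge, with earlier results of these data known. Of 26 liver and acute phase genes tested, 25 had a positive log2 fold change and 11 were called higher and 0 lower, against 3.32% and 2.68% of all genes. The median was 0.47. The complement gene c3a.2 had 2902, 2512 and 1940 scaled counts in the libraries labelled Mutant, against 735 and 1058 in those labelled WT (log2 fold change 1.45, SE 0.18, adjusted p = 0.0082). The iron carrier gene tfa had 81502, 98299 and 73777 labelled Mutant, against 30823 and 51727 labelled WT (log2 fold change 1.07, SE 0.20, adjusted p = 0.0239). Both genes lay above every library labelled WT in all 3 labelled Mutant.

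The protease inhibitor gene a2ml and the copper carrier gene cp were higher by 0.68 (SE 0.13) and 0.63 (SE 0.12) on the log2 scale. The other 7 called were ahsg2, f2 (prothrombin), hp (haptoglobin), apoa2, c9, c3a.3 and fgg (fibrinogen), at 0.42 to 0.61. The bile acid synthesis gene cyp7a1 had the single negative value, -0.51 (SE 0.18, adjusted p = 0.12). The count depended on single libraries, as did that over all genes. It was 5 without replicate 1 labelled Mutant and 1 without replicate 2. In these fits 240 and 48 of all genes were called higher, against 674 with all libraries. The median lay between 0.37 and 0.52 over the fits with a library left out.

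Of 4 liver markers, tfa and apoa2 were called higher, and fabp10a lay above without passing (limma adjusted p = 0.0633). Groups overlapped for serpina1l (log2 fold change 0.13, SE 0.15, adjusted p = 0.629). Their sum followed the most abundant, tfa and apoa2. Summed scaled counts of 4 markers (fabp10a, tfa, apoa2 and serpina1l, all of which are also in the list) were 158327 to 193386 in the libraries labelled Mutant and 88100 to 123009 in those labelled WT, and none was at 0. More cells of a type and more RNA per cell cannot be told apart in bulk samples, and the part of liver content in the list was not tested.

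Genes listed as targets in hepatic gluconeogenesis and amino acid metabolism had 7 positive and 10 negative fold changes, with a median of -0.14. Of the 17 tested, 2 were called lower and 0 higher, against 2.68% and 3.32% of all genes. The difference from the acute phase list was not tested. The tyrosine aminotransferase gene tat, a glucocorticoid and C/EBP target in mammalian liver, had 1776, 1561 and 2319 scaled counts in the libraries labelled Mutant, against 4259 and 2652 in those labelled WT (log2 fold change -0.85, SE 0.20, adjusted p = 0.0421). The insulin receptor substrate gene irs2b was also lower, by -0.60 in log2 fold change (SE 0.15, adjusted p = 0.0455). Both calls were lost without replicate 1 or 2 labelled Mutant (0 of 17 in each). In these fits 197 and 22 of all genes were called lower, against 544 with all libraries. Without passing, the gluconeogenic gene pck1 was at -0.32 (SE 0.15), the glucose 6-phosphatase gene g6pca.2 at 0.37 (SE 0.11, adjusted p = 0.0734) and foxo1a, which encodes an insulin-regulated factor, at 0.28 (SE 0.10).

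Of 17 adipocyte and lipid storage genes tested, 3 were higher and 0 lower, against 3.32% and 2.68% of all genes. Fold changes were positive for 8 and negative for 9, with a median of -0.13. The genes called were g0s2, an inhibitor of lipolysis, plin2, which encodes a lipid droplet coat protein, and the fatty acid binding protein gene fabp11a. There were 287, 223 and 106 scaled counts of g0s2 in the libraries labelled Mutant, against 63.7 and 30.7 in those labelled WT (log2 fold change 2.07, SE 0.40, adjusted p = 0.026). For plin2 there were 4112, 4418 and 2230 labelled Mutant, against 1220 and 1469 labelled WT (log2 fold change 1.36, SE 0.24, adjusted p = 0.0217). The gene fabp11a was at 0.55 on the log2 scale (SE 0.14, adjusted p = 0.0483).

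Other genes of the list did not pass. On the log2 scale they were at -0.57 (SE 0.20, adjusted p = 0.112) for pparg, which acts with C/EBPα in fat cells, -0.58 (SE 0.17, adjusted p = 0.0705) for srebf1 and -0.36 (SE 0.11, adjusted p = 0.0781) for fasn, and at 0.50 (SE 0.26, adjusted p = 0.257) for the lipid droplet gene cidec and 0.061 (SE 0.24) for plin6. The lipoprotein lipase gene lpl was at -0.60 (SE 0.21) and the lipase gene pnpla2 at -0.17 (SE 0.19). With columns rescaled to equal totals 3 genes of the list were called lower and 2 higher, where 1103 and 481 of all genes were. The number higher was 1 without replicate 1 labelled Mutant and 0 without replicate 2, where 240 and 48 of all genes were called higher. Without replicate 1 labelled Mutant 1 gene of the list was lower, where 197 of all genes were. The adipocyte markers plin1, cidec, adipoqb and fabp11a summed to 1115 to 1657 scaled counts in the libraries labelled Mutant and 888 to 1013 in those labelled WT. Of these plin1 was below the minimum level, with at most 12 reads in a library labelled Mutant and 6 in one labelled WT. The groups overlapped for adipoqb, at 27.3 to 37.7 scaled counts labelled Mutant and 25.0 to 38.1 labelled WT. All 4 are also in the list, and without fabp11a the sums overlapped (278 to 569 labelled Mutant, 275 to 279 labelled WT). Their part in the list was not tested.

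Neutrophil and macrophage genes were positive in 23 of 27 tested, with a median of 0.37, and 2 were called higher and 0 lower, against 3.32% and 2.68% of all genes. The list holds cpa5, known as a mast cell gene and used here also as a pancreatic marker, without which 22 of 26 were positive, with a median of 0.39. The 2 called were mpeg1.1, a macrophage gene (log2 fold change 0.67, SE 0.12, adjusted p = 0.0209), and spi1a, a gene of the PU.1 family of myeloid factors (0.70, SE 0.17, adjusted p = 0.0456). The 4 negative fold changes were those of csf3r (-0.14), csf1ra (-0.068), csf1rb (-0.039) and spi1b (-0.0066), each with overlapping groups. Of these, csf1ra is also 1 of the 4 macrophage markers summed below. There were 498, 545 and 490 scaled counts of mpeg1.1 in the libraries labelled Mutant, against 307 and 332 in those labelled WT. The neutrophil gene mpx had 1345, 630 and 1005 labelled Mutant, against 740 and 647 labelled WT, which overlapped. Its fellow lyz overlapped as well, with a log2 fold change of 0.17 (SE 0.19), as did npsn (0.13, SE 0.20). Only lect2l, the last of the 4 neutrophil markers summed below, lay above in every library labelled Mutant. It had 1502, 618 and 711 scaled counts labelled Mutant, against 411 and 427 labelled WT, and was not called. The number of list genes called higher was 1 without replicate 2 labelled Mutant and 6 without replicate 3. In these fits 48 and 662 of all genes were called higher. Summed over 4 markers each, neutrophil genes gave 2643 to 4461 scaled counts in the libraries labelled Mutant and 2245 to 2284 in those labelled WT, and macrophage genes 1026 to 1047 labelled Mutant and 802 to 820 labelled WT. The part of these sums in the list was not tested.

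Targets shared with ATF4 in the amino acid response, and glutathione genes, included 4 called lower and 0 higher of 27 tested, against 2.68% and 3.32% of all genes. Fold changes were positive for 11 and negative for 16, with a median of -0.088. The cystine transporter gene slc7a11 (SLC7A11 in the table) had 23.7, 17.2 and 23.2 scaled counts in the libraries labelled Mutant, against 62.0 and 120.7 in those labelled WT (log2 fold change -1.98, SE 0.31, adjusted p = 0.0163). The gene ddit4, an inhibitor of mTORC1 that also responds to glucocorticoids, had 809, 708 and 779 labelled Mutant, against 1788 and 1305 labelled WT (log2 fold change -0.998, SE 0.14, adjusted p = 0.0121). Lower values were also called for cbsb, of cysteine synthesis (-0.52, SE 0.12), and gclc, which encodes the catalytic subunit of glutathione synthesis (-0.50, SE 0.12). The groups did not overlap in any of the 4, with the Mutant group below, which held for 22.7% of all genes tested.

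None of the remaining 23 genes of this list passed. For asns the value was 0.27 on the log2 scale (SE 0.15, adjusted p = 0.274) and for chac1 -0.036 (SE 0.12, adjusted p = 0.875). All libraries labelled Mutant lay above both labelled WT for mthfd2 (0.80), sesn2 (0.59), gpt2 (0.51), pck2 (0.42) and psat1 (0.40), with adjusted p from 0.0678 to 0.0951. The same held for 22.3% of all genes tested, so nothing is read from it. The number called lower was 2 without replicate 1 labelled Mutant and 0 without replicate 2, where 197 and 22 of all genes were called lower. At least 2 genes were called higher without replicate 3 labelled Mutant, where 662 of all genes were called higher.

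**Figure D4:**
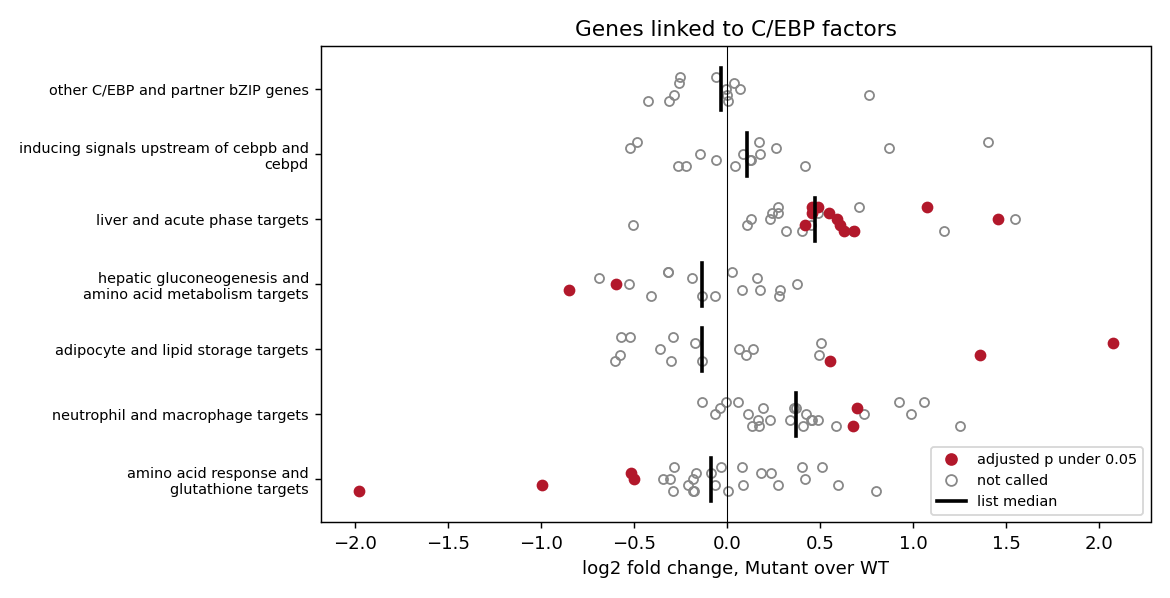
Log2 fold change, Mutant over WT (x axis), of every tested gene in 7 lists linked to C/EBP factors (rows), with genes at an adjusted p under 0.05 filled and list medians as vertical bars. Liver and acute phase genes have a median of 0.47 with 11 genes called higher, while the medians of the gluconeogenesis and adipocyte lists are -0.14 and -0.13.

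Other tissues in the pools differed in marker content as well. Epidermal markers summed to 335167 to 352672 scaled counts in the libraries labelled Mutant and 218588 to 243883 in those labelled WT. Sums labelled Mutant were also wholly above those labelled WT for skeletal muscle (520242 to 583498 labelled Mutant, 428354 to 455427 labelled WT), intestine (67097 to 77465 labelled Mutant, 58112 to 58756 labelled WT) and fin fold and bone (34100 to 35512 labelled Mutant, 17874 to 26319 labelled WT). Such sums follow their most abundant markers. The muscle gene ckma was at 0.084 on the log2 scale (limma adjusted p = 0.668). Groups overlapped for vil1 and cdx1b of the intestine and for col10a1a and sp7 of fin fold and bone. Other markers of these tissues lay above in every library labelled Mutant. Retinal markers summed to 21206 to 26739 labelled Mutant and 32324 to 34811 labelled WT. The pancreatic sums overlapped between the groups (285887 to 306671 labelled Mutant, 273155 to 335419 labelled WT), as did those of the brain (14636 to 16315 labelled Mutant, 15430 to 18161 labelled WT). Because C/EBP genes are used in liver, skin, fat and blood cells, values in whole larvae average over these tissues, and the part of tissue content in the C/EBP values was not tested.

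**Figure D5:**
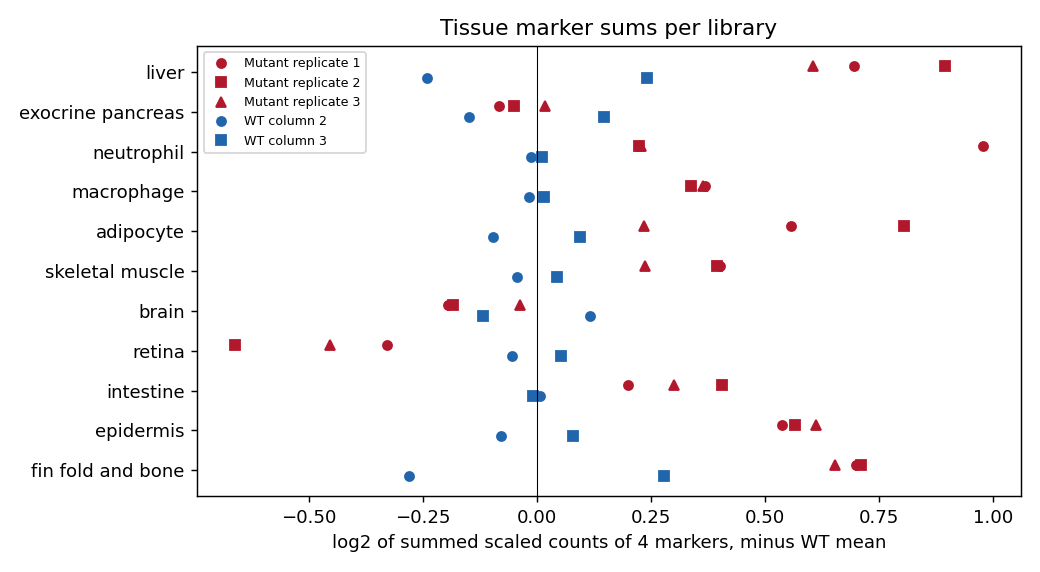
Summed scaled counts of 4 marker genes per tissue (rows), as log2 minus the mean of the libraries labelled WT (x axis), with 1 symbol per library, labelled Mutant in red and labelled WT in blue. The 3 libraries labelled Mutant lie above both labelled WT for liver, neutrophil, macrophage, adipocyte, skeletal muscle, intestine, epidermis and fin fold and bone, below for retina, and overlap for brain and exocrine pancreas.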

How the data were processed

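The authors aligned paired reads to danRer7 with STAR, counted them per Ensembl gene with HTSeq 0.5.3 and scaled them with DESeq. The deposited signal per gene and library is the count divided by a size factor with 1 added. After subtracting 1, all values were whole multiples of 1 step per column (tolerance 0.01), which gave the reads per library. Use of strand in counting is not given in the sources used here, so overlapping and antisense genes are uncertain.

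Log2(scaled count + 1) values of both groups were fitted without covariates in R 4.3.3, using limma 3.58.1 and its mean-variance trend. The test covered 20307 genes that averaged 10 or more scaled counts and left out 1547. The test was two-sided with Benjamini-Hochberg adjustment over all tested genes. With 2 libraries against 3, p-values rest on a variance model shared across genes. The steps were tested on simulated data.

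Members, lists and markers were chosen with earlier results of these data known. Named genes were the members, zbtb24, all listed bZIP partners, up to 4 called genes per direction in other lists (or the 2 of smallest p), neighbours, closest profiles and markers. Other genes named with values were chosen after their values were seen. Symbols were matched through the table, a gene name table and RefSeq synonyms. The alternatives were pseudocounts of 0.5 and 8, no minimum, a minimum mean of 50, equal totals, quantile normalization, limma's voom on the recovered reads and a block on the numbers in the column names (both added after seeing the data), and leaving out each library.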

Additional observations from a re-analysis of the deposited data

How the results depend on the processing

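For cebpa, cebpb and cebpd the log2 fold change stayed negative in all 8 other settings and all 5 fits without a library. With a library left out it lay between -0.41 and -0.23 for cebpa, -0.70 and -0.56 for cebpb, and -0.80 and -0.59 for cebpd, and between -0.0044 and 0.32 for cebpg. Rescaling to equal totals gave -0.41, -0.71, -0.78 and 0.072. It also moved the median over all genes, from -0.0014 to -0.086. Scaled counts of all genes summed to 26374301 to 26430176 in the libraries labelled Mutant, against 24622895 and 25190715 in those labelled WT. Differences in the parts of the sum lay between -0.15 and 2.15 percentage points for cebpa.

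Over all genes, 674 were higher and 544 lower (55.3% of calls higher). Equal totals gave 481 and 1103 (30.4%), and voom, chosen after seeing the data, 485 and 1246 (28.0%). Voom used library totals with no further scaling factor, so these settings share their scaling. The median log2 fold change over all genes was -0.086 in each, against -0.0014 in the main fit. Without a library, called genes numbered 44 (without WT column 2) to 2428 (without WT column 3), higher 31 to 1317 and lower 13 to 1111; without Mutant replicates 1 and 2 higher were 240 and 48, and lower 197 and 22. With 1 library labelled WT left, it is assumed to vary like the others. The list of inducing signals and the genes that respond to them is called inducing genes here. In lists, equal totals and voom each gave 2 inducing genes lower, 3 adipocyte genes lower and 1 myeloid gene higher. Without a library, inducing genes lower were 0 to 2, liver higher 0 to 14, gluconeogenesis higher 0 to 1 and lower 0 to 2, adipocyte higher 0 to 3 and lower 0 to 2, myeloid higher 0 to 7, amino acid response higher 0 to 3 and lower 0 to 3, and neighbours higher 0 to 1. The bZIP median lay between -0.17 and 0.012. The adipocyte median lay between -0.12 and 0.035, and was 0.082 without a minimum level. The cause of these differences in the lists was not tested.

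Signs of small changes turned. Under equal totals, where the median over all genes was -0.086, these were cebp1 (-0.013), atf4b (-0.048), atf5b (-0.084), adcy7 (-0.045), ptpn1 (-0.069) and snai2 (-0.062). Quantile normalization gave atf4b -0.045, atf5b -0.013, atf3 0.0090 and ptpn1 -0.0037. Voom, where that median was -0.086 as well, gave cebp1 -0.012, atf4b -0.048, atf5b -0.085, adcy7 -0.046, ptpn1 -0.070 and snai2 -0.062. Without a library, ranges were -0.25 to 0.39 for cebp1, -0.095 to 0.043 for atf4a, -0.0038 to 0.081 for atf4b, -0.11 to 0.11 for atf5b, -0.21 to 0.21 for atf3, -0.090 to 0.044 for heatr3, -0.019 to 0.064 for ptpn1, -0.14 to 0.68 for mcm4, -0.016 to 0.050 for snai2, -0.28 to 0.13 for dtna and -0.12 to 0.95 for CCDC178.

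Count models on recovered reads, planned as alternatives, were not run. The numbers 2 and 3 of the WT columns cannot be tied to sample titles, so pairing by the labels was not run. A replicate block on the numbers in the column names, chosen after seeing the data, rests on 2 pairs and 1 residual degree of freedom per gene. Deviations from the group means correlated at -0.15 for number 2 and -0.13 for number 3 across genes. With 2 libraries labelled WT, the deviations of columns 2 and 3 mirror each other. These values therefore cannot decide whether libraries of the same number share anything else. The block gave 523 genes higher and 487 lower, log2 fold changes of -0.41, -0.70, -0.80 and 0.14 for cebpa, cebpb, cebpd and cebpg, 6 liver genes higher, 1 gluconeogenesis gene lower, 2 adipocyte genes higher and 1 lower with a median of 0.035, 4 myeloid genes higher, 2 amino acid response genes lower, and values of -0.25 for cebp1 and -0.016 for atf5b.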

Other observations

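The table also lists cebpz, named after a CCAAT element but not a bZIP gene. It had 760, 928 and 828 scaled counts in the libraries labelled Mutant, against 789 and 799 in those labelled WT, which overlapped (log2 fold change 0.073, SE 0.11, limma adjusted p = 0.716).

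The acute phase gene hp has 2 rows. The row with the higher level, used above, had 1563, 1605 and 1369 scaled counts in the libraries labelled Mutant, against 1075 and 995 in those labelled WT. The other row, ENSDARG00000051890, had 676 in replicate 1 labelled Mutant and 2.15 and 2.02 in replicates 2 and 3, against 1.72 and 8.47 in the libraries labelled WT, so that its level came from a single pool. That pool held the highest cebpb and cebpd of the libraries labelled Mutant (1527 and 3590 scaled counts). Both genes were higher still in the libraries labelled WT (2204 and 2016 for cebpb, 5371 and 4667 for cebpd). A link between this row and the C/EBP genes was not tested.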
